A study of Mus musculus with 6 samples.

Results

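The TRIM genes are a family of ubiquitin ligases, and their mRNA levels were followed in 4T1 cells with and without a knockout of Atm. 4T1 is a cultured tumour line that arose in the mammary gland of a BALB/c mouse. The members were all genes whose symbol begins with Trim followed by a number, and 38 of the 13405 genes listed in all 6 deposited files met that rule. Trim21, Trim25, Trim30a and Trim34a form the interferon-linked group, and the other 34 members are the remaining group. RNA of cultured cells was sequenced in 2 groups of 3 libraries, ATM KO cells and vector control cells. The labels give neither the knockout method nor the number of clones. They also do not tie the 3 libraries of a group to 3 cultures, so the spread behind each p-value may be technical.

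A TRIM protein is built from a RING finger, which brings the ubiquitin-loaded enzyme to the substrate, 1 or more B-box zinc fingers and a coiled coil, followed by a C-terminal part that usually chooses the substrate. In many members that part is a PRY-SPRY domain. Several members are induced by interferon or tune the sensing of viral nucleic acids, and others act in chromatin, cell division, the cytoskeleton or protein quality control. ATM is a kinase activated by double-strand breaks in DNA, and TRIM28, also called KAP1, is among its direct substrates. The series title connects loss of ATM with cGAS-STING activation, which induces interferon, and the question addressed is how the mRNAs of these ligases stood in cells that lack ATM.

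Values are normalized read counts per gene, scaled by the authors with a single factor for each library. A difference is the mean of ATM KO cells less that of vector control cells, taken on log2(value + 1) by limma, and comes with its standard error (SE) or 95% interval. The reads recovered from the values of the listed genes numbered between 22494919 and 32341508 per library. The log2 values correlated at 0.914 between vector control 1 and each other control, while vector controls 2 and 3 correlated at 0.997. Vector control 1 is thus the odd library of its group, and the plot of differences shows each tested member with and without it. It correlated at 0.965 with ATM KO 2, more than with its own group. The ATM KO group was not tight either, as ATM KO 2 and 3 correlated at 0.930. Atm itself had 1959, 2220 and 1591 in ATM KO cells and 1978, 1613 and 1519 in vector control cells, and these values overlap. The edited position is not given in the labels, and a gene-level count need not fall with a small deletion, so Atm mRNA checks nothing here. All 6 epithelial markers were listed, with sums of 64661 to 101289 in ATM KO cells and 54015 to 82732 in vector control cells, and Krt5 was at 0 in all libraries. Of 8 leukocyte markers only Cd68 was among the genes listed (226.5 to 806 in ATM KO cells, 301 to 1080 in vector control cells), and of 4 endothelial markers only Cdh5, at up to 6.84 in ATM KO and 11.7 in vector control cells. Of 6 fibroblast markers 3 were listed, with sums of 344 to 754 in ATM KO cells and 146 to 547 in vector control cells, nearly all of it Pdgfra.

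Interferon induces genes through a DNA element, the interferon-stimulated response element, whose core is a pair of GAAA blocks. The letters GAAANNGAAA were searched on both strands of the RefSeq promoter windows (build GRCm38.p6), which run from 250 bases before to 50 bases after an annotated start. Of 28 members with a window, 6 held the motif, namely Trim2, Trim12c, Trim21, Trim26, Trim30a and Trim34a. The interferon-linked group had it in 3 of 4 and the remaining members in 3 of 24, while 3.99% of all 27025 genes with a window held it. Some genes have several windows, and per window the shares were 17.5% of the 40 TRIM windows and 3.44% of all 32851 windows. The sites of the interferon-linked members and of Trim12c, which lies in the same gene cluster as Trim30a and Trim34a, are shown because the comparison turns on these genes. Another site of Trim30a is not shown. Each is 30 bases on the strand of the gene, 5′ to 3′, with the motif in capitals. TTTCNNTTTC is the same motif read on the other strand, and the 2 overlapping copies in Trim21 form a single run.
Trim21 (chr7:102565447-102565476, minus strand): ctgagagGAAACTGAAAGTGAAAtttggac
Trim30a (chr7:104465210-104465239, minus strand): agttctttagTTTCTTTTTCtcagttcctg
Trim34a (chr7:104244457-104244486, plus strand): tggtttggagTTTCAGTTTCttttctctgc
Trim12c (chr7:104353359-104353388, minus strand): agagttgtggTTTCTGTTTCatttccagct
The first capital lies 14 bases into the transcript in Trim21 and 11 in Trim34a, 36 bases before the start in Trim30a and 29 before it in Trim12c. The Trim30a site that is not shown (chr7:104446104-104446133) lies in the window of another annotated start, 3 bases into that transcript. The window of Trim25 held no such letters. A match is a description of the sequence and not a binding site.

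No TRIM gene passed a test of ATM KO against vector control cells. Of the 38 members, 37 had a mean of at least 10 and were tested. Limma called 0 of them at an adjusted p under 0.05 (background 0% of 12149 genes), edgeR called 0 (background 0%) and DESeq2 called 0 (background 0.691%). None had an unadjusted p under 0.05 by any of the 3 tools, where limma gave such a p to 4.16% of all tested genes. The smallest limma p of a member was 0.0829, for Trim65. Differences were positive in 23 members and negative in 14, with a median of 0.07 for the 37 members and -0.01 for all tested genes. In 20 of the 37 the 95% interval lay within a 2-fold change in either direction. The intervals of the other 17 reached past a 2-fold change in at least 1 direction. In bulk RNA, less transcript per cell and fewer cells with the transcript cannot be told apart.

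**Figure D1:**
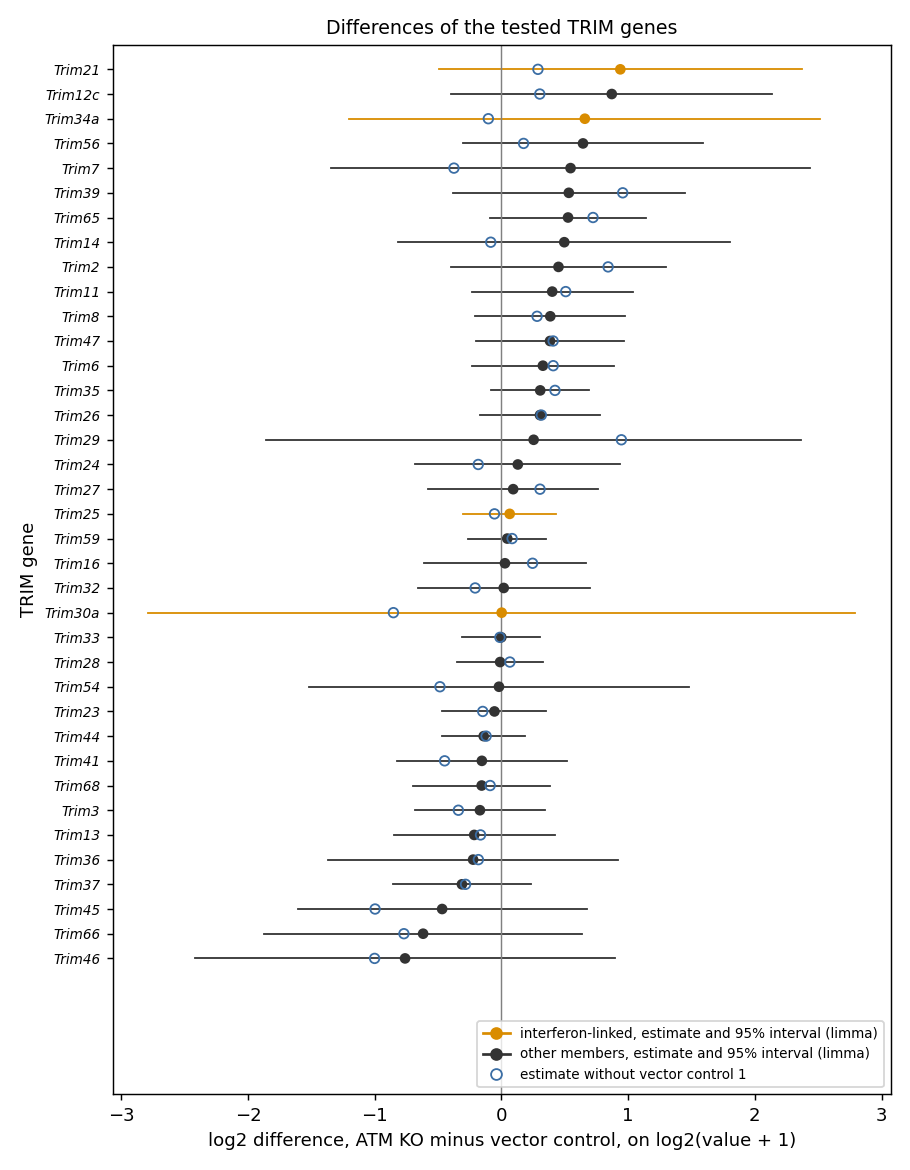
Log2 difference of each of the 37 tested TRIM genes, ATM KO minus vector control, with its 95% limma interval (filled points, interferon-linked members in orange); open circles give the difference without vector control 1. Every interval crosses 0, and the open circles of Trim21, Trim34a, Trim56, Trim7 and Trim14 lie left of the filled points.

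Levels of the family spanned a wide range. Per kilobase of merged exon, the mean over the 6 libraries was highest for Trim28 at 2678 normalized reads per kb, followed by Trim59 at 1082, Trim44 at 1041, Trim35 at 860.3, Trim8 at 844 and Trim25 at 835. At the low end stood Trim66 at 1.95, Trim30a at 3.05, Trim34b at 4.15, Trim46 at 4.52, Trim29 at 5.28, Trim36 at 7.58 and Trim34a at 7.63 normalized reads per kb. Above 100 reads per kb stood 19 members, and 7 lay below 10. The interferon-linked group was therefore split: Trim25 was among the abundant members, Trim21 was intermediate at 47.7 reads per kb, and Trim30a and Trim34a were near the lower end. Every library of Trim28 lay above every library of Trim59, while the libraries of Trim35, Trim8 and Trim25 overlap one another.

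**Figure D2:**
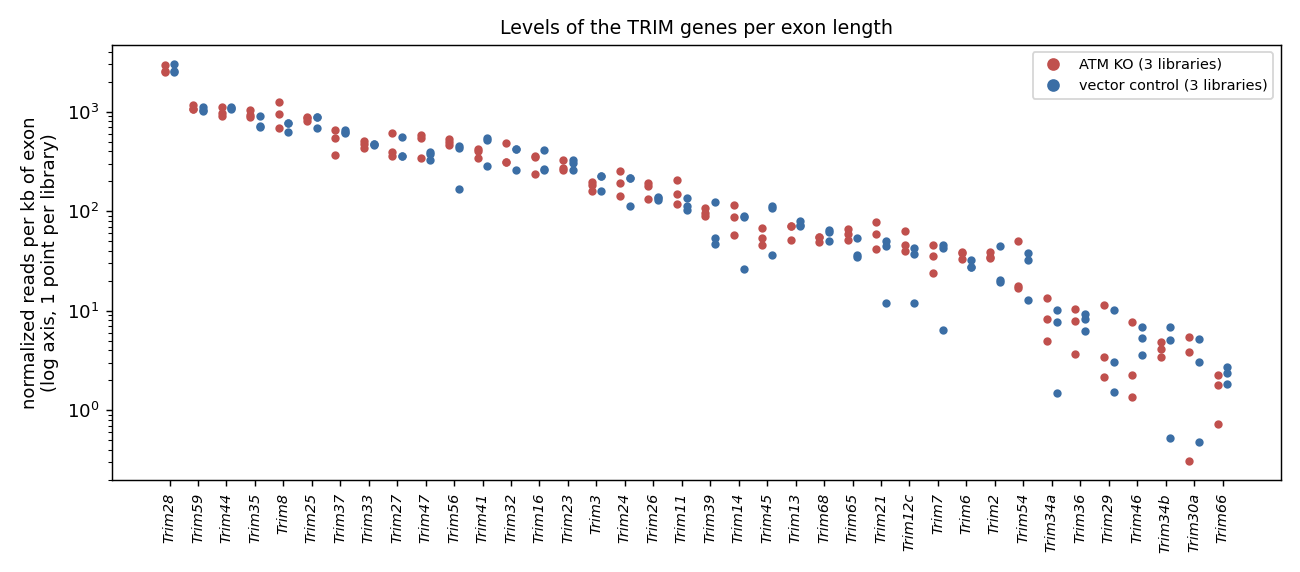
Normalized reads per kb of merged exon for the 38 TRIM genes (log axis), 1 point per library, ATM KO left of vector control. Trim28 is highest at a mean of 2678 and Trim66 lowest at 1.95, and single vector control points fall far below the rest in Trim56, Trim14, Trim21, Trim12c, Trim7, Trim34a and Trim34b.

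The interferon-linked group had a median difference of 0.36, beside 0.05 for the 33 tested remaining members. All 4 differences were above 0, that of Trim30a by 0.002 and turning negative under TMM scaling, and in each of the 4 the groups overlap. Trim21 (ENSMUSG00000030966, chromosome 7, 102557921 to 102565486, minus strand, GRCm38), a cytosolic receptor for antibody-coated virus, had 221, 155 and 291 in ATM KO cells and 44.8, 166 and 186 in vector control cells. ATM KO 2 lay below vector controls 2 and 3, and the lowest value by far was that of vector control 1. The log2 difference was 0.94 (SE 0.59, interval -0.49 to 2.37, limma adjusted p = 0.999), and it was 0.29 without vector control 1.

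Trim25 (ENSMUSG00000000275, chromosome 11, 88999376 to 89020293, plus strand), the ligase that modifies the RNA sensor RIG-I, was the steadiest of the 4. Its values were 5045, 4989 and 4652 in ATM KO cells and 3959, 5040.0 and 5125 in vector control cells. Vector control 1 was again the lowest library, and the other 5 lay close together. The log2 difference of 0.07 had an interval from -0.30 to 0.43, which lies within a 2-fold change in either direction, and it turned to -0.05 without vector control 1.

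Trim30a (ENSMUSG00000030921, chromosome 7, 104409025 to 104465193, minus strand), known in mouse as a brake on Toll-like receptor signalling, was close to the detection limit. It had 22.2, 15.9 and 1.28 in ATM KO cells and 1.95, 21.3 and 12.6 in vector control cells. The 1.28 of ATM KO 3 is 1 read and the 1.95 of vector control 1 is 2 reads, so 1 library of each group was nearly empty. The log2 difference of 0.002 had an interval from -2.79 to 2.79 and was -0.85 without vector control 1. Its sign also turned to negative under TMM scaling and with a pseudocount of 0.5, so no direction can be given.

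Trim34a (ENSMUSG00000056144, chromosome 7, 104244457 to 104262234, plus strand) is a mouse counterpart of TRIM34, which in human cells acts with TRIM5 against retroviral capsids. It had 21.4, 12.7 and 34.6 in ATM KO cells and 3.89, 26.1 and 19.96 in vector control cells, and the groups overlap. The log2 difference was 0.66 (SE 0.77) with all libraries and -0.10 without vector control 1. Its neighbour Trim34b, a close copy with which reads can be lost or shared, had 7.70, 6.37 and 8.96 in ATM KO cells and 0.973, 12.6 and 9.46 in vector control cells, and it fell under the minimum for testing. An antisense gene, Gm47248, covers 23.5% of the exon bases of Trim34a, and the sources used here do not say whether counting used strand.

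Without vector control 1 the contrast between the 2 sets of members was gone. The median difference was then -0.08 for the interferon-linked group and -0.01 for the remaining members, and 1 of the 4 interferon-linked members was positive. As the median deviation from each gene's mean over the libraries, the interferon-linked group stood at 0.42, 0.03 and 0.43 in ATM KO 1 to 3 and at -1.74, 0.36 and 0.25 in vector controls 1 to 3. For the remaining members these medians were 0.08, -0.02 and 0.08 in ATM KO cells and 0.00, 0.04 and 0.04 in vector control cells. The sets thus stood apart mainly in 1 control library. The epithelial marker Epcam was also lowest there (11990.5, 8142 and 20502 in ATM KO 1 to 3, and 6116, 17513 and 17180.4 in vector controls 1 to 3). So were the epithelial markers Krt8, Krt18 and Krt14, while Cdh1 was even across libraries. Krt14 was also lower in every control than in every ATM KO library (2223, 1370 and 2311 in ATM KO cells, and 150, 684 and 654 in vector control cells). Of all tested genes, 31.2% were lowest in vector control 1. Cd68 and Cdh5 were not lowest there. Pdgfra was lowest there too (471, 323 and 712 in ATM KO cells, and 129, 474 and 469 in vector control cells). The part of these markers in the result was not tested.

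**Figure D3:**
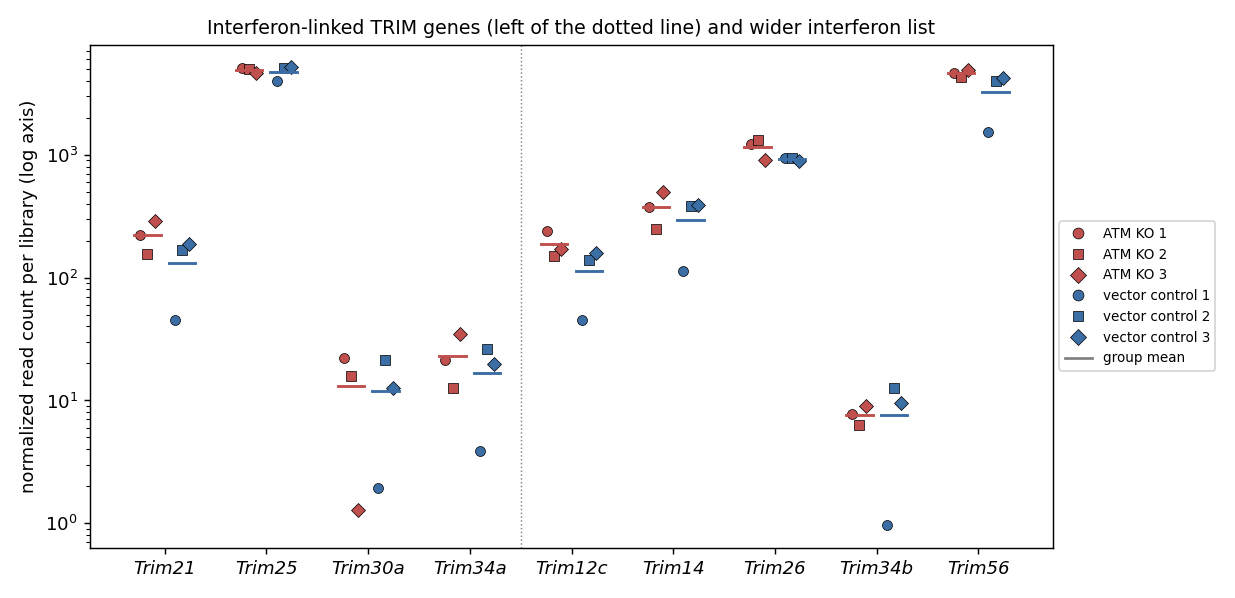
Normalized read counts per library (log axis) of the 4 interferon-linked members, left of the dotted line, and of 5 further members of a wider interferon list; ATM KO points lie left of vector control points, each library has its own marker shape, and lines are group means. The vector control 1 circle is the lowest of the 6 points in 7 of the 9 genes, the exceptions being Trim30a and Trim26.

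A wider but not complete list of members reported as interferon-inducible or antiviral holds 9 listed genes, the 4 above with Trim12c, Trim14, Trim26, Trim34b and Trim56. Trim6 and Trim65, described below with roles in antiviral sensing, are not in it and count among the 29 members outside. In both, vector control 1 was the highest control, and their differences without it were 0.41 and 0.72. The counts below therefore depend on which members were listed. The 8 tested ones were positive (Trim30a turned negative under TMM scaling), with a median of 0.57. Without vector control 1, 4 of 8 were positive, with a median of 0.06. The 29 members outside the list had a median of 0.02 with all libraries and -0.09 without vector control 1. Vector control 1 was the lowest of the 6 libraries in 7 of these 9 members, in 9 of the 29 members outside the list and in 31.2% of all tested genes. Trim12c, a mouse relative of the human retroviral restriction factor TRIM5, had 239, 149.6 and 171 in ATM KO cells and 44.8, 139 and 158 in vector control cells. Here ATM KO 2 lay between the upper controls, and the log2 difference of 0.87 (SE 0.53) was 0.30 without vector control 1. Trim14, an adaptor without a RING finger that acts at MAVS and stabilizes cGAS, had 376, 250.4 and 500.4 in ATM KO cells and 114, 379 and 387 in vector control cells. Its difference of 0.50 turned to -0.08 without vector control 1, and it shares 31.3% of its exon bases with Nans on the opposite strand. Trim26, which acts on TBK1 and IRF3, departed from the list in that vector control 1 was not low. It had 1229, 1320.0 and 902 in ATM KO cells and 933, 942 and 884 in vector control cells, and the difference of 0.30 (SE 0.20) stood at 0.31 without vector control 1, 0.20 without ATM KO 2 and 0.47 without ATM KO 3.

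In Trim56 and Trim6 every ATM KO library lay above every vector control library. These are 2 of 37 tested members, and 5.7% of all tested genes were arranged that way. No member lay lower in every ATM KO library, against 5.48% of all tested genes. Trim56 (ENSMUSG00000043279, chromosome 5, 137105644 to 137116209, minus strand), which has been reported to ubiquitinate STING and cGAS, had 4605, 4303 and 4931 in ATM KO cells and 1537, 3988 and 4175 in vector control cells. The ATM KO libraries were alike and only slightly above vector controls 2 and 3, and vector control 1 was far lower. The log2 difference was 0.64 (SE 0.39, limma adjusted p = 0.999) with all libraries and 0.17 without vector control 1. Trim6 (ENSMUSG00000072244, chromosome 7, 104218793 to 104235152, plus strand), which in human cells makes free ubiquitin chains that activate IKK epsilon, had 192, 187 and 160.0 in ATM KO cells and 159.6, 133 and 136 in vector control cells. Its separation rests on a margin under 1 normalized read and was lost under TMM scaling, where 1 member had groups apart, and the difference was 0.33 (SE 0.23) and 0.41 without vector control 1.

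On chromosome 7 lie 10 of the members, and 5 of them, Trim6, Trim34a, Trim34b, Trim12c and Trim30a, lie within 246.4 kb (104218793 to 104465193). The 5 neighbours did not follow 1 pattern. Trim34a, Trim34b and Trim12c were lowest in vector control 1, Trim30a was near 0 there and in ATM KO 3, and Trim6 had its highest control value in vector control 1. Close copies are known in this cluster, so counts of Trim30a, Trim34a, Trim34b and Trim12c are uncertain.

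Trim24, Trim28 and Trim33 were followed as chromatin members, and of these 3, Trim28 and Trim33 had intervals well within a 2-fold change. Trim28, the co-repressor that KRAB zinc finger proteins bring to repeats and a substrate of ATM, had 10299.9, 12297 and 10689 in ATM KO cells and 12398, 10418 and 10712 in vector control cells. The 2 highest libraries were 1 of each group, and the log2 difference of -0.01 had an interval from -0.35 to 0.33 and was 0.067 without vector control 1. Trim33, a ligase for SMAD4, had 4617, 4237 and 4916 in ATM KO cells and 4517, 4609.5 and 4630.3 in vector control cells, with an interval from -0.31 to 0.31 around -0.0013, and -0.012 without vector control 1. Trim24, which targets p53, was less even. It had 1640.1, 1219 and 2135 in ATM KO cells and 961, 1851 and 1833 in vector control cells, a difference of 0.13 (SE 0.34), which turned to -0.18 without vector control 1. With libraries rescaled to equal totals the differences of Trim28 and Trim33 turned to 0.026 and 0.035. These are mRNA levels, and they hold nothing on phosphorylation of TRIM28.

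Trim29, whose human counterpart was named ATDC after the ataxia-telangiectasia group D cells in which it was found, was low and scattered in both groups. It had 12.0, 7.43 and 39.7 in ATM KO cells and 35.0, 10.6 and 5.25 in vector control cells. One library of each group was high, ATM KO 3 and vector control 1, and the interval of the difference of 0.25 ran from -1.86 to 2.36. The difference was 0.95 without vector control 1 and -0.40 without ATM KO 3.

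Among members whose higher group averaged 50 or more, Trim21, Trim12c, Trim56 and Trim7 had the largest positive differences. Trim7, which binds glycogenin, the primer of glycogen synthesis, had 271, 183 and 349 in ATM KO cells and 48.7, 322 and 349.9 in vector control cells. Apart from vector control 1 the controls were not lower, and the difference of 0.55 (SE 0.78) turned to -0.38 without that library. On the recovered reads of all 6 libraries edgeR gave 0.15 and DESeq2 0.16. The largest negative differences were those of Trim45, Trim37, Trim13 and Trim3. Trim45, a filamin-type member that restrains MAPK signalling, had 323, 272 and 411 in ATM KO cells and 219, 646 and 675 in vector control cells. Vector control 1 was below the ATM KO libraries and the other controls were above them, so the difference was -0.47 (SE 0.47) with all libraries and -0.997 without vector control 1. Trim37, a centrosome and peroxisome ligase with a MATH domain, had 3954, 4669 and 2648 in ATM KO cells and 4722, 4492 and 4409 in vector control cells. Its difference of -0.31 (SE 0.23) rested on ATM KO 3, and it was -0.08 without that library and -0.28 without vector control 1. Trim13, a membrane-anchored ligase of the endoplasmic reticulum, had 117, 84.9 and 118 in ATM KO cells and 131, 119 and 118 in vector control cells, with a difference of -0.21 (SE 0.26) that was -0.060 without ATM KO 2 and -0.17 without vector control 1. Trim3, of the NHL repeat class, had 833, 728 and 899.7 in ATM KO cells and 726, 1030.2 and 1039 in vector control cells, and the groups overlap. Its difference was -0.17 (SE 0.21), -0.34 without vector control 1 and -0.086 without ATM KO 2.

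Among the other abundant members, Trim44 and Trim59 had small differences, and Trim35 and Trim8 had larger ones. Trim44, a RING-less member with a ubiquitin-binding zinc finger, had 6275, 5117 and 5408 in ATM KO cells and 6311, 6093 and 6041 in vector control cells, a difference of -0.14 (SE 0.14). It was -0.12 without vector control 1, -0.078 without ATM KO 2 and -0.22 without ATM KO 1. Trim35, which binds pyruvate kinase M2, had 4080.1, 4273 and 4799 in ATM KO cells and 4158, 3211 and 3316 in vector control cells. Only vector control 1 reached into the ATM KO values, and the difference was 0.31 (SE 0.16, interval -0.08 to 0.69) and 0.42 without vector control 1. Trim59 had the second highest level per kb and averaged 3684 ± 179 in ATM KO and 3568 ± 172 in vector control cells (SD, n = 3 each), with an interval of the difference from -0.26 to 0.35. Its difference was 0.046, and 0.084 without vector control 1. Trim8, also high per kb, had 3526, 2560 and 4669 in ATM KO cells and 2305, 2868 and 2859 in vector control cells. With overlapping groups, its difference was 0.39 (SE 0.25). It was 0.28 without vector control 1, 0.61 without ATM KO 2 and 0.17 without ATM KO 3.

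By C-terminal class, with RING-less members counted apart, the 16 tested PRY-SPRY members had 14 positive and 2 negative differences and a median of 0.36, which was 0.30 without vector control 1 (10 positive, 6 negative). The 3 PHD-bromodomain members had a median of -0.0013, the 3 NHL members 0.02 and the 5 members without a RING finger 0.03. Both members of the microtubule-binding COS-FN3-PRY-SPRY class were negative and low, Trim46 (-0.76, and between -1.42 and -0.27 when 1 library was left out) at 29.1, 8.49 and 5.12 in ATM KO cells and 13.6, 20.3 and 26.3 in vector control cells, and Trim36 (-0.22, and 0.20 without ATM KO 3) at 38.5, 50.9 and 17.9 in ATM KO cells and 40.9, 31.0 and 45.2 in vector control cells. Outside the interferon-linked group, differences ranged from -0.76 (Trim46) to 0.87 (Trim12c). A further 30 annotated protein-coding Trim genes were not analysed here.

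**Figure D4:**
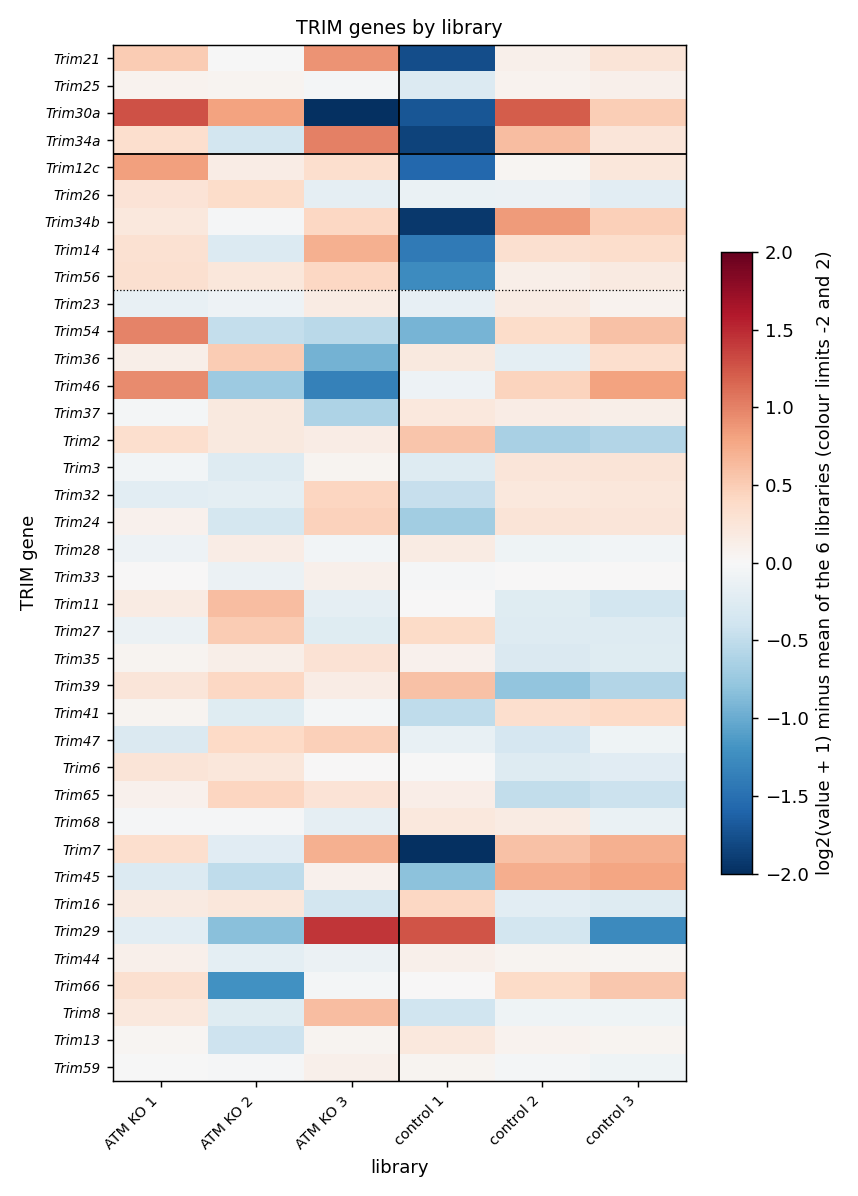
Each TRIM gene's log2(value + 1) in each library minus its mean over the 6 libraries (blue lower, red higher, colours limited to -2 and 2), with ATM KO left of the control libraries; the solid line sets off the 4 interferon-linked members and the dotted line the wider list. Vector control 1 is deep blue for Trim21, Trim30a, Trim34a, Trim12c, Trim34b, Trim14, Trim56 and Trim7, and it is red for Trim2, Trim39 and Trim29.

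Vector control 1 was not low throughout the family. It was the lowest of the 6 libraries in 15 of the 37 tested members (40.5%) and the highest in 8 (21.6%), against 31.2% and 31.9% of all tested genes. Without it, DESeq2 called 3 of 37 members (background 4.48% of genes), which were chosen after these results were seen: Trim2, Trim39 and Trim45. Limma called none of them in the same libraries (adjusted p between 0.202 and 0.240). Trim2, a ligase for neurofilament light chain in mouse neurons, had 762, 691 and 672 in ATM KO cells and 891, 384 and 405 in vector control cells. Trim39, which stabilizes the Bax activator MOAP-1, had 698, 781 and 649 in ATM KO cells and 883, 339 and 391 in vector control cells. In both genes vector control 1 was above all ATM KO libraries and the other controls were well below them, so the differences were 0.84 (Trim2) and 0.96 (Trim39) without it and 0.45 and 0.53 with it. Set against vector controls 2 and 3 alone, 9 of 37 members were higher in every ATM KO library (background 19.6%) and 4 were lower in every one (background 21.8%). Vector controls 2 and 3 resembled each other more than any other pair, so these 2 libraries may understate the spread.

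Trim65, the ligase that activates the RNA sensor MDA5 and the member with the smallest p, was picked out after its values were seen. It had 303, 385 and 347 in ATM KO cells and 313, 204 and 211 in vector control cells, and vector control 1 overlapped the ATM KO range. The difference was 0.53 (SE 0.26, interval -0.09 to 1.14), and it was 0.72 without vector control 1. Without that library the adjusted p was 0.258 by limma and 0.0624 by DESeq2.

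Among 3 listed TRIM proteins under other symbols, 0 passed limma, edgeR or DESeq2 (0%, 0% and 0.691% of all tested genes did). An unadjusted p under 0.05 was found in 0 of the 3 (4.16% of all tested genes by limma). Pml, which builds nuclear bodies and is interferon-induced, had 2693, 2187 and 2489 in ATM KO cells and 1491, 2938 and 3035 in vector control cells, and vector control 1 was the lowest library here too. Mid1, a microtubule-bound ligase, had 49.6, 85.9 and 61.4 in ATM KO cells and 86.6, 86.1 and 87.2 in vector control cells, with every ATM KO library below every control (log2 -0.43, SE 0.31). That separation rests on a margin under 1 normalized read, between 85.9 in ATM KO 2 and 86.1 in vector control 2. Mid1 is 1 of 3 genes, and 5.48% of all tested genes were lower in every ATM KO library. Mid2 averaged 1600.3 ± 236 in ATM KO and 2080.2 ± 285 in vector control cells (SD, n = 3 each).

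The ubiquitin enzymes that serve TRIM ligases had 7 positive and 3 negative differences with a median of 0.06. Of the 10, 0 passed limma, edgeR or DESeq2 (0%, 0% and 0.691% of all tested genes did), while 1 had an unadjusted p under 0.05 by each tool (4.16% of all tested genes by limma). The ubiquitin-activating enzyme Uba1 was the 1 of 10 with groups apart (5.7% of all tested genes were higher in every ATM KO library), at 30177, 29222 and 32691 in ATM KO cells and 25822, 22370.4 and 22949.6 in vector control cells (log2 0.37, SE 0.13, limma adjusted p = 0.999). The partners of TRIM28 in silencing, Setdb1, Atf7ip, the HP1 genes Cbx1, Cbx3 and Cbx5, Chd3, Hdac1 and Hdac2, had a median of 0.01 over 9 tested rows (Atf7ip has 2 gene IDs). Of these rows, 0 passed limma, edgeR or DESeq2 (0%, 0% and 0.691% of all tested genes did). An unadjusted p under 0.05 was also found in 0 rows (4.16% of all tested genes by limma).

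In the TRIM25 and RIG-I axis, 1 of 6 genes passed DESeq2 (0.691% of all tested genes did). Isg15, an interferon-induced ubiquitin-like protein, had 331, 347 and 145 in ATM KO cells and 67.1, 68.7 and 87.2 in vector control cells (log2 1.78, SE 0.40, DESeq2 adjusted p = 0.00481, limma adjusted p = 0.999). In Isg15 vector control 1 lay with the other controls, whereas Trim21 had 44.8 in vector control 1 and 166 and 186 in vector controls 2 and 3. Ddx58, which encodes RIG-I, had 1569, 1378 and 2795 in ATM KO cells and 1187, 1282 and 1211 in vector control cells, with no overlap and no call by any of the 3 tools. Isg15 and Ddx58 are 2 of 6 genes higher in every ATM KO library, beside 5.7% of all tested genes. Rnf135, the other RIG-I ligase, averaged 286 ± 23.5 in ATM KO and 244 ± 64.1 in vector control cells (SD, n = 3 each), while Mavs, the adaptor downstream, averaged 1724 ± 187 in ATM KO and 2122 ± 166 in vector control cells (SD, n = 3 each).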

How the data were processed

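The authors deposited, for each gene, a signal that equals its read count scaled by a library factor; the values themselves show this, since 100% come out as whole reads, within 0.01, once the factor is removed. Per the submitters' processing notes, the tools were STAR, HTSeq, SAMtools, DESeq2, cutadapt and Trim Galore and the builds GRCm38 and mm9; their versions and roles are not given in the sources used here. Coordinates and exon lengths come from GENCODE M21 on GRCm38, which holds all 38 members. Of 13405 listed genes, the 12149 with a mean of at least 10 were tested with limma 3.58.1 in R 4.3.3 (log2(value + 1), mean-variance trend, 2-sided, Benjamini-Hochberg adjustment over all tested genes, threshold 0.05). The recovered read counts were also tested with edgeR 4.0.16 (quasi-likelihood, 0 genes called) and DESeq2 1.42.0 (84 called). The scripts were tested on simulated counts.

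The members and lists were chosen with earlier results of these data known. Lists are described by counts and medians, with no set test. The genes named with values are the interferon-linked members; any member called or with groups that do not overlap; Trim24, Trim28, Trim33 and Trim29; the 6 highest means; and the 4 largest differences in each direction among members whose higher group averaged 50 or more. Others are marked or shown as members of a class or list. Alternatives were other pseudocounts, filters and scalings, the replicate number as a block, the count tests and leaving out each library.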

Additional observations from a re-analysis of the deposited data

How the results depend on the processing

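Limma called 0 TRIM genes under each pseudocount, filter and scaling tried and without any 1 library, and edgeR and DESeq2, each run with 1 filter and scaling, called 0 in all 6 libraries. DESeq2 called 3 without vector control 1, an alternative chosen after seeing the data, and 0 without any other library. Over all tested genes, limma and edgeR called 0% and DESeq2 0.691% in all 6 libraries. Without vector control 1, limma called 0 of all tested genes and DESeq2 called 4.48%. The limma count of 0 is thus not particular to the TRIM genes. The labels do not say whether replicate numbers pair the samples. The deviations of same-numbered libraries correlated at -0.02, -0.58 and 0.53, and those of ATM KO 2 and vector control 1 at 0.61. So few libraries cannot settle whether equal numbers are pairs. With the replicate block the count was 0 by all 3 tools.

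The number of members with groups apart was 2 of 37, 1 under TMM scaling and 3 with equal totals. Over all tested genes, 5.7% were higher and 5.48% were lower in every ATM KO library. Leaving out 1 library gave 2 to 13 members, where fewer libraries separate more easily. The 13 came without vector control 1, where 19.6% of all tested genes were higher and 21.8% were lower. The rise was thus not particular to the TRIM genes. The median of the remaining members was 0.05, 0.11 with a mean of at least 50, and between -0.012 and 0.17 when 1 library was left out. The interferon-linked median ranged from -0.08 (without vector control 1) to 0.87 (without vector control 2).

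Directions turned as follows. Trim30a was at -0.024 with a pseudocount of 0.5 and -0.00072 under TMM scaling, Trim28 at 0.026 and Trim33 at 0.035 with equal totals, and Trim33 at 0.0026 by DESeq2. Leaving out 1 library gave -0.85 to 1.04 for Trim30a, -0.18 to 0.34 for Trim24, -0.055 to 0.13 for Trim25, -0.087 to 0.067 for Trim28, -0.40 to 0.95 for Trim29, -0.052 to 0.055 for Trim33, -0.10 to 1.13 for Trim34a and -0.38 to 1.04 for Trim7. In all, 16 of 37 tested members changed sign at least once when 1 library was left out. The cause was not tested.

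Depth limits the low members: Trim30a had between 1 and 26 reads per library, and Trim34a between 4 and 27.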
